A study of Arabidopsis thaliana with 15 samples.

Results

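The genes described here are the cyclins, the cyclin-dependent kinases and the inhibitors of these kinases in whole seedlings of Arabidopsis gyf mutants and wild type. They were taken from the deposited count table by name, as every gene whose name starts with CYCA, CYCB, CYCD, CDKA to CDKF, KRP or SMR followed by a digit or separator. This gave 39 of the 32833 genes in the table: 10 D-type cyclins, 9 A-type cyclins, 9 B-type cyclins, 4 B-type kinases (CDKB), 5 other kinases (CDKC2, CDKC;1, CDKD1;1, CDKD1;3 and CDKE;1) and 2 inhibitors of the KRP family. No gene carried a CDKA, CDKF or SMR name, and 13 genes of the same families that the table lists under other names are described separately. Steady-state mRNA was measured by strand-specific RNA sequencing in 15 libraries, 3 for each of 5 genotypes. The genotypes were gyf1 gyf2-2 and gyf1 gyf2-1, which are double mutants, the single mutants gyf2 and gyf1, and wild type (WT) of the Col-0 accession. All seedlings were 1 week old, untreated and grown on MS medium with 1% sucrose, and about 100 mg of whole seedlings was extracted per sample. The labels name no locus for gyf1 or gyf2. Whether gyf2-2 and gyf2-1 name alleles or lines is not stated there, and neither is the one present in the single mutant gyf2.

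Cyclins bind and activate cyclin-dependent kinases, and the kind of cyclin present sets the step of the division cycle that is driven. In plants, D-type cyclins answer to sugar and hormones and act with CDKA at the start of the cycle, where they relieve the retinoblastoma protein's block on E2F factors. A-type cyclins act from DNA replication to the entry into mitosis, and B-type cyclins with the plant-specific CDKB kinases act at mitosis. CDKC, CDKD and CDKE kinases act mainly on the transcription machinery, and CDKD also activates other cyclin-dependent kinases. KRP and SMR proteins bind and inhibit cyclin-kinase complexes, and they are known for slowing division or favouring rounds of replication without mitosis. In a seedling most cells have stopped dividing, so mRNA of mitotic genes comes from a small share of cells in meristems, young leaves and the stomatal lineage. In whole seedlings, fewer dividing cells and less mRNA per dividing cell cannot be told apart.

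The sequences before the gene starts are given for 3 genes that fell in a double mutant and, for comparison, for CYCB1;1, a common marker of mitosis. They are the 250 bases before the annotated start on the gene's own strand, taken from the RefSeq genome TAIR10.1, whose starts and ends equal those of the deposited TAIR10 table for all 39 genes. Capitals mark AACGG or its reverse complement CCGTT, the core of the element through which MYB3R factors drive mitotic genes.
CYCD3;2 (chr5:26835889-26836138, plus strand): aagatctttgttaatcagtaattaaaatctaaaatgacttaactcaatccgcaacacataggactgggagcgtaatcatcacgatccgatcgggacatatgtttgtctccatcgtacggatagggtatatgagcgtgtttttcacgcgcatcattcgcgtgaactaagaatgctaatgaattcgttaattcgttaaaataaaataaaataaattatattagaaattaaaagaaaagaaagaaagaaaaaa
CYCA1;1 (chr1:16777353-16777602, minus strand): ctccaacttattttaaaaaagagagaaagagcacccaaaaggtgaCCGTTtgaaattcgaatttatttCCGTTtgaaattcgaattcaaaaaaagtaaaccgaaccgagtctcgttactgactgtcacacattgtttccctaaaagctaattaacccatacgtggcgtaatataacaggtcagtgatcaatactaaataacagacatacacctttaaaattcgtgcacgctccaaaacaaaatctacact
KRP2 (chr3:18800056-18800305, plus strand): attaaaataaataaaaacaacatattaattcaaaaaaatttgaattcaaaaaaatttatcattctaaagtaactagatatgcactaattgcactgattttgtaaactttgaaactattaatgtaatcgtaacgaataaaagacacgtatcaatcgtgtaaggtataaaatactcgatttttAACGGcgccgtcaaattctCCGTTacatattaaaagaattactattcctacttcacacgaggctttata
CYCB1;1 (chr4:17624309-17624558, minus strand): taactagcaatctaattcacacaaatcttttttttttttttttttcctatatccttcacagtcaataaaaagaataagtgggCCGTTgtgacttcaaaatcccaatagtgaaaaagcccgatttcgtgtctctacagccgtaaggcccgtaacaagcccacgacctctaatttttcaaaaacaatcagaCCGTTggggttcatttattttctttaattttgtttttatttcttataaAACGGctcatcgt
CYCB1;1 had matches starting at −168, −61 and −13 relative to the gene's start, and CYCA1;1 had them at −205 and −182. KRP2 had them at −69 and −50, and CYCD3;2 had none. CYCD1;1, which also fell in a double mutant and whose sequence is not given, had none either. In windows that also took in the first 50 bases of the gene, the core was found on either strand in 7 of 9 B-type cyclins, 4 of 9 A-type cyclins, 1 of 4 CDKB genes and 1 of 10 D-type cyclins. It was found in 2 of 5 other kinases and in both KRP genes. Together 17 of 39 genes (43.59%) had a match, against 24.66% of the 27406 protein-coding genes searched in the same way. An E2F site (TTTCCCGC, TTTGGCGC, TTTGCCGC or TTTCGCGC) was found in CYCA1;2 and CYCD3;3 and in 1.76% of all windows. A TCP site (GGNCCCAC) was found in CYCA1;2 and in 1.32% of all windows. These are matches of letters and not measured binding sites.

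Libraries held 16567801 to 24681140 counts, and the 39 genes together took 0.0474 to 0.0559% of them. In 4 genotypes 1 library stood apart from the others of its genotype in the chi-square per gene between libraries: gyf1 gyf2-2 replicate 2, gyf1 gyf2-1 replicate 1, gyf2 replicate 3 and WT replicate 1. No label ties the libraries of a genotype to separate cultures, so the tests measure the spread between these samples only, which may be technical. All 3 libraries per genotype were used, although the text on the design mentions duplicates. Counts were tested by edgeR's quasi-likelihood test over all 20721 genes that passed a filter on low counts, and a gene was called where its p, adjusted by the Benjamini-Hochberg method over all of them, was below 0.05. Of the 39 genes, 37 were tested. CYCA3;3 had 0 counts in every library and CYCD7;1 at most 10. Levels of single genes are given as FPKM, which are fragments scaled to gene length and to library depth.

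The highest levels, as means over all libraries, were 29.3 FPKM for CDKC2, 24.1 FPKM for CYCD3;2 and 17.7 FPKM for CDKB2;1. CYCD2;1 came between CYCD3;2 and CDKB2;1. In all, 10 genes averaged at least 10 FPKM and 5 were below 1 FPKM. All 4 of the D-type cyclins CYCD2;1, CYCD3;1, CYCD3;2 and CYCD3;3 were among the 10. The highest B-type cyclin, CYCB1;4, averaged 7.37 FPKM. The median tested gene of the 37 had a mean count of 206.7, below the 315.1 of the median tested gene overall.

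In the single mutants 0 of the 37 genes were called against WT, in gyf2 or in gyf1. In gyf2, 1 had an unadjusted p below 0.05 and DESeq2 and limma called 0, while 2.5% of all tested genes were called (1.99% higher and 0.516% lower). In gyf1, 1 had an unadjusted p below 0.05 and DESeq2 and limma called 0, while 0.521% of all tested genes were called (0.405% higher and 0.116% lower). The double mutants had few calls as well. In gyf1 gyf2-2, 4 of the 37 genes were called (10.8%), 1 higher and 3 lower, against 27.7% of all tested genes (15.1% higher and 12.6% lower). In gyf1 gyf2-1, 3 of the 37 were called (8.11%), 1 higher and 2 lower, against 25.9% of all tested genes (14.2% higher and 11.7% lower). The genes that fell were CYCD3;2 in both lines, CYCD1;1 and KRP2 in gyf1 gyf2-2 and CYCA1;1 in gyf1 gyf2-1, and CDKE;1 rose in both lines. The called changes lay between −0.38 and 0.30 on the log2 scale.

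The intervals of most genes not called lay within a factor of 2 either way. The bounds used are wider than the called changes, so genes not called are not shown to be unchanged. In gyf1 gyf2-2, 31 of the 33 genes not called had a 95% interval within a factor of 2 either way and 24 within a factor of 1.5. In gyf1 gyf2-1 this held for 32 and 25 of 34 genes. In gyf2 it held for 36 and 29 of 37, and in gyf1 for 37 and 32 of 37. The median log2 fold change of the 37 genes was −0.08 in gyf1 gyf2-2, −0.14 in gyf1 gyf2-1, −0.02 in gyf2 and −0.06 in gyf1, and that of all tested genes was no further from 0 than −0.01 in any of the 4. The estimate was below 0 for 25, 28, 21 and 26 of the 37 genes in the same order.

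**Figure D1:**
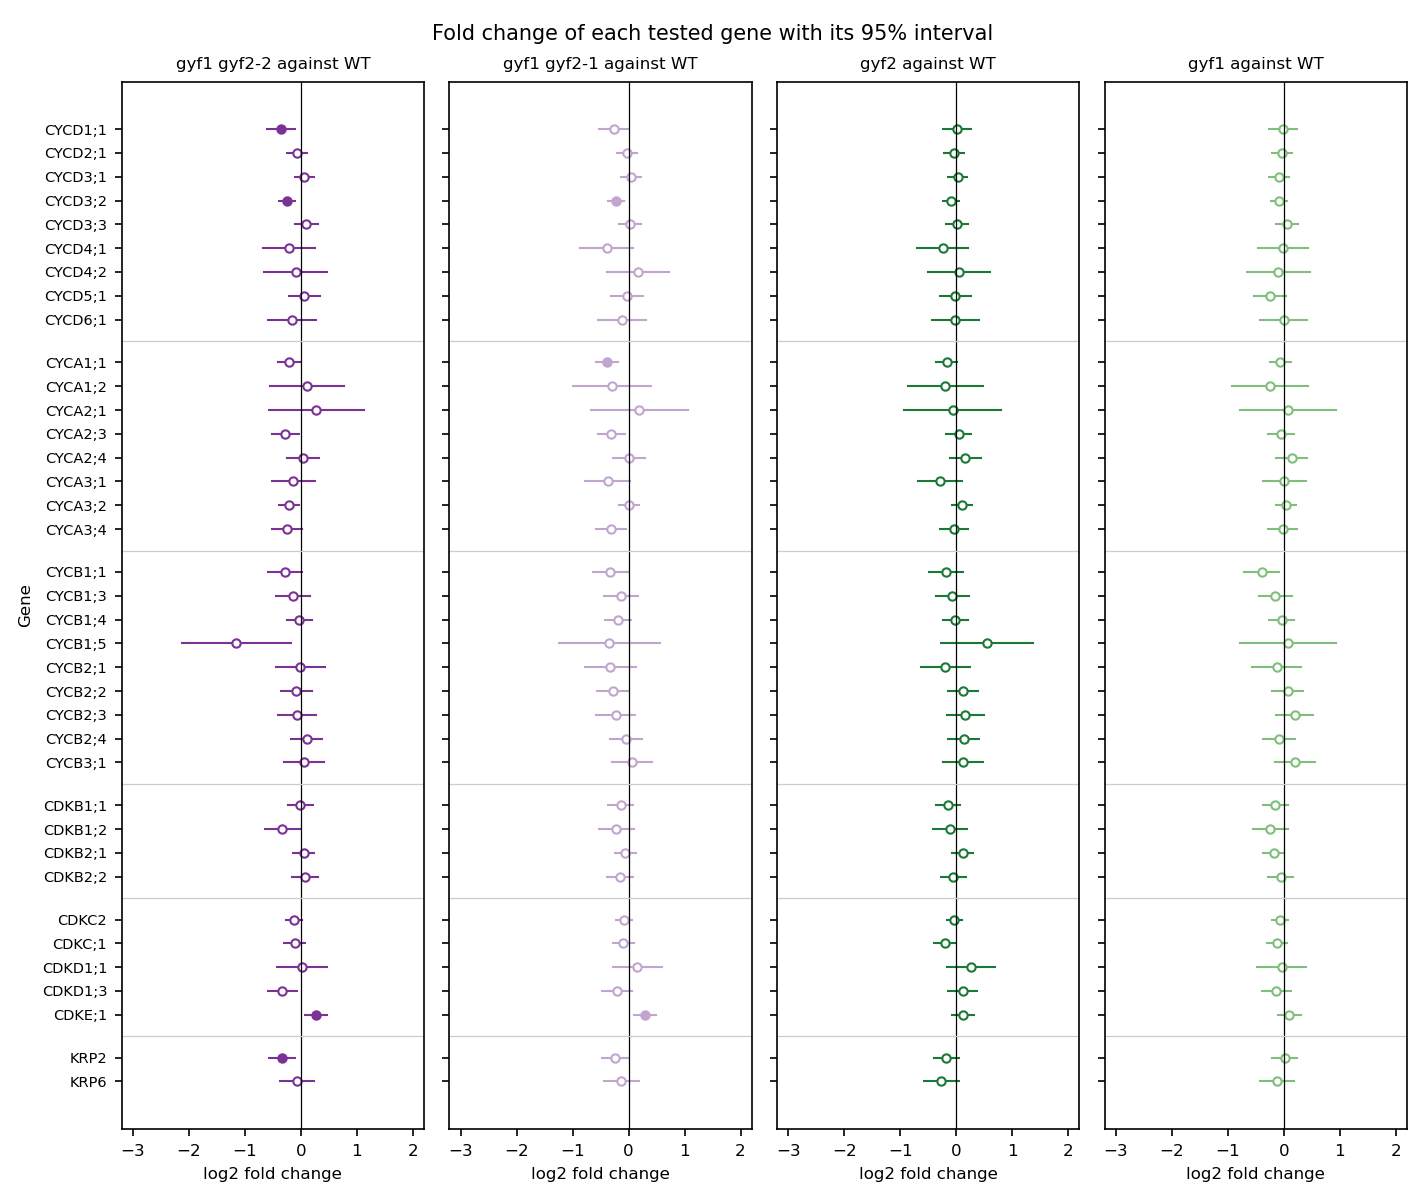
Log2 fold change against WT (horizontal axis) of the 37 tested genes (rows, grouped as D-type, A-type and B-type cyclins, CDKB kinases, other kinases and KRP inhibitors) in gyf1 gyf2-2, gyf1 gyf2-1, gyf2 and gyf1, with 95% intervals from the edgeR fit as lines. Filled points are genes called at adjusted p below 0.05, of which there are 4 in gyf1 gyf2-2, 3 in gyf1 gyf2-1, 0 in gyf2 and 0 in gyf1, and most intervals include 0.

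Among the D-type cyclins, CYCD3;2 fell in both double mutant lines. CYCD3;2 is one of the 3 CYCD3 genes, which keep cells of young leaves dividing. It lies at chromosome 5, 26836139 to 26839597, on the plus strand. CYCD3;2 had 22.1, 22.3 and 21.7 FPKM in gyf1 gyf2-2 and 22.6, 22.9 and 21.9 FPKM in gyf1 gyf2-1. It had 25.6, 24.8 and 23.6 FPKM in gyf2, 25.9, 25.9 and 22.7 FPKM in gyf1, and 26.2, 26.3 and 26.1 FPKM in WT. All 6 double mutant libraries lay below all 3 WT libraries, and the spread within WT was the smallest of the 5 genotypes. The log2 fold change was −0.25 in gyf1 gyf2-2 (SE 0.07, adjusted p = 0.00793), with −0.23 in gyf1 gyf2-1 (SE 0.07, adjusted p = 0.0192). The call in gyf1 gyf2-2 was the only one of the 14 calls of these genes, over all comparisons, that held under every alternative run. In gyf1 gyf2-1 it was lost without that line's replicate 3 (−0.21, adjusted p = 0.0779). The single mutants had −0.09 (gyf2, adjusted p = 0.611) and −0.08 (gyf1, adjusted p = 0.736).

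CYCD1;1 fell in gyf1 gyf2-2. It had 4.69, 5.09 and 3.55 FPKM in gyf1 gyf2-2 and 5.12, 4.61 and 4.46 FPKM in gyf1 gyf2-1. It had 6.16, 5.71 and 5.46 FPKM in gyf2, 6.16, 5.75 and 4.89 FPKM in gyf1, and 6.05, 5.14 and 5.86 FPKM in WT. The double mutant libraries lay below those of WT, by a narrow margin, and replicate 3 of gyf1 gyf2-2 was the lowest of all. Its log2 fold change was −0.36 in gyf1 gyf2-2 (SE 0.13, adjusted p = 0.0335) and −0.27 in gyf1 gyf2-1 (adjusted p = 0.119). The call was lost without gyf1 gyf2-2 replicate 3 (−0.22, adjusted p = 0.23), without WT replicate 1 (−0.31, adjusted p = 0.113) or 3 (−0.34, adjusted p = 0.0787), by limma (−0.36, adjusted p = 0.0505), and with only the genotypes compared in the fit (−0.36, adjusted p = 0.0582). The mean of the double mutants was also lower than gyf2 (−0.33, SE 0.11, adjusted p = 0.0254) and gyf1 (−0.29, SE 0.11, adjusted p = 0.0471). Against gyf2 the call was lost without gyf2 replicates 1 (−0.29, adjusted p = 0.124) or 2 (−0.34, adjusted p = 0.065), gyf1 gyf2-1 replicate 3 (−0.31, adjusted p = 0.0505) or gyf1 gyf2-2 replicate 3 (−0.27, adjusted p = 0.0647). Against gyf1 it was lost without any of 6 single libraries, at −0.31 to −0.21, by DESeq2 (−0.29, adjusted p = 0.0582), by limma (−0.29, adjusted p = 0.0765), and with only the genotypes compared in the fit (−0.29, adjusted p = 0.0556).

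The other D-type cyclins were not called. Their estimates ran from −0.21 to 0.10 in gyf1 gyf2-2, from −0.39 to 0.16 in gyf1 gyf2-1, from −0.24 to 0.05 in gyf2 and from −0.25 to 0.06 in gyf1. The paralogues of CYCD3;2 were close to WT: CYCD3;1 had a log2 fold change of 0.06 in gyf1 gyf2-2 and 0.04 in gyf1 gyf2-1, and CYCD3;3 had 0.10 and 0.03. CYCD6;1, which acts in formative divisions of the root ground tissue, had 1.90 ± 0.0860 FPKM in gyf1 gyf2-2, 1.97 ± 0.257 in gyf1 gyf2-1, 2.10 ± 0.140 in gyf2, 2.12 ± 0.346 in gyf1 and 2.11 ± 0.560 in WT (SD, n = 3 each). It shares 847 bases with AT4G03260 on the opposite strand, a gene with a mean count of 3571. The sources used here do not state the strand setting of the counting, so its values are uncertain. CYCD3;1 shares 40 bases with AT4G34150 on the same strand, which has a mean count of 2092.

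Among the A-type cyclins, CYCA1;1 fell in gyf1 gyf2-1. It encodes a cyclin of the phase before mitosis and lies at chromosome 1, 16774765 to 16777352, on the minus strand. CYCA1;1 had 9.30, 9.05 and 9.11 FPKM in gyf1 gyf2-2 and 8.03, 8.43 and 8.13 FPKM in gyf1 gyf2-1. It had 10.2, 9.10 and 8.99 FPKM in gyf2, 10.8, 10.0 and 9.66 FPKM in gyf1, and 11.5, 10.5 and 9.91 FPKM in WT. The gyf1 gyf2-1 libraries were the lowest 3 of all 15, and those of gyf1 gyf2-2 lay below WT but within the range of gyf2. The log2 fold change was −0.38 in gyf1 gyf2-1 (SE 0.10, adjusted p = 0.00387), which held without any single library and was lost without the 4 libraries that stood apart (−0.30, adjusted p = 0.06). It was −0.22 in gyf1 gyf2-2 (adjusted p = 0.0865), and the difference between the lines was 0.16 (adjusted p = 0.75). The mean of the double mutants was lower than gyf1 (−0.23, SE 0.08, adjusted p = 0.0351). That call was lost without gyf1 replicate 1 (−0.18, adjusted p = 0.188) or 2 (−0.24, adjusted p = 0.0807). It was also lost without gyf1 gyf2-1 replicate 1 (−0.23, adjusted p = 0.0523) or 3 (−0.23, adjusted p = 0.0557) gyf1 gyf2-2 replicate 3 (−0.23, adjusted p = 0.0504), or the 4 libraries that stood apart (−0.22, adjusted p = 0.0529).

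CYCA2;3, an A-type cyclin known for restraining repeated replication without division, had 5.57, 6.98 and 6.93 FPKM in gyf1 gyf2-2 and 7.29, 6.25 and 5.62 FPKM in gyf1 gyf2-1. It had 7.96, 8.66 and 7.82 FPKM in gyf2, 8.26, 7.53 and 6.95 FPKM in gyf1, and 7.98, 8.51 and 7.12 FPKM in WT. The double mutant libraries lay below all of gyf2 and overlapped gyf1. The mean of the double mutants was lower than gyf2 (−0.33, SE 0.10, adjusted p = 0.0145), and without gyf2 replicate 2 this was not called (−0.29, adjusted p = 0.0913). Against WT the estimates were −0.28 in gyf1 gyf2-2 (adjusted p = 0.0732) and −0.31 in gyf1 gyf2-1 (adjusted p = 0.0535).

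CYCA3;2, the A-type cyclin with the highest level, had 11.8, 11.0 and 11.3 FPKM in gyf1 gyf2-2 and 14.9, 12.8 and 11.9 FPKM in gyf1 gyf2-1. It had 13.9, 14.3 and 14.2 FPKM in gyf2, 13.8, 13.2 and 13.5 FPKM in gyf1, and 12.5, 14.0 and 12.8 FPKM in WT. The gyf1 gyf2-2 libraries were the lowest 3, with a log2 fold change of −0.21 that was not called (adjusted p = 0.0808), and gyf1 gyf2-1 had 0.01. CYCA3;2, CYCA3;3 and CYCA3;4 lie side by side on chromosome 1 between 17300691 and 17308848. The sources used here do not state how reads shared by such copies were assigned.

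The summed level of the 9 A-type cyclins was the one subgroup total in which both double mutant lines lay apart from the other genotypes. It was 42.1 to 44.5 FPKM in gyf1 gyf2-2 and 41.6 to 43.5 FPKM in gyf1 gyf2-1, against 48.1 to 49.1 FPKM in gyf2, 45.4 to 52.0 FPKM in gyf1 and 47.8 to 50.1 FPKM in WT. The log2 ratio to WT was −0.18 in gyf1 gyf2-2 and −0.19 in gyf1 gyf2-1, and these sums were not tested. The sum of the D-type cyclins averaged 86.5 ± 2.89 FPKM in gyf1 gyf2-2, 86.7 ± 0.714 in gyf1 gyf2-1, 89.6 ± 5.53 in gyf2, 88.9 ± 3.14 in gyf1 and 91.5 ± 4.47 in WT (SD, n = 3 each), with overlapping libraries.

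**Figure D2:**
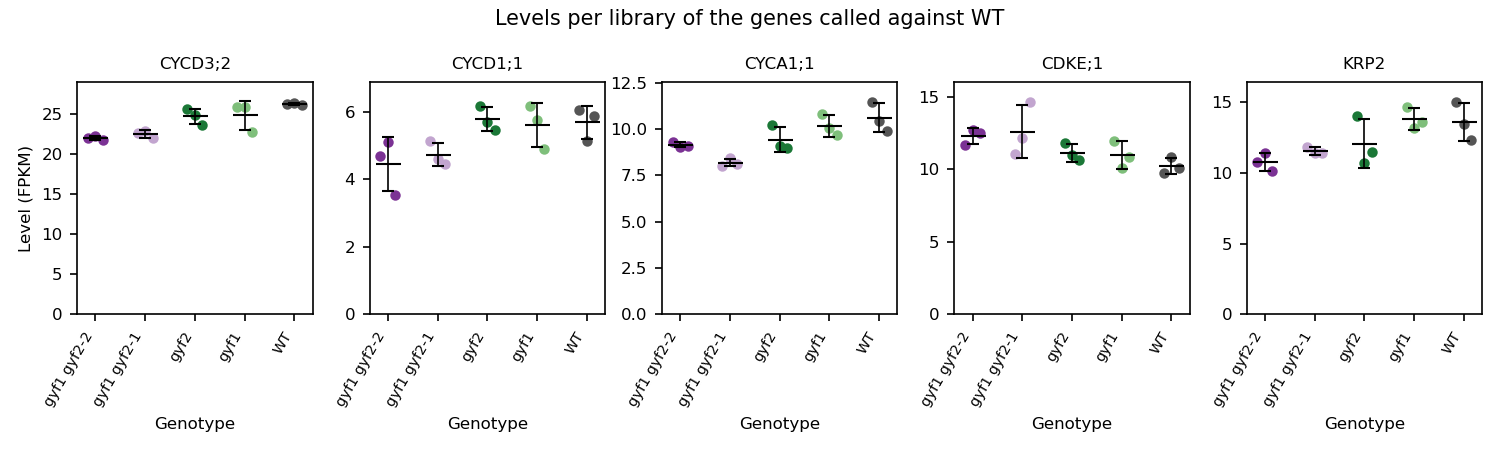
Level in FPKM (vertical axis) of the 5 genes called against WT in at least 1 double mutant line, for each of the 3 libraries of gyf1 gyf2-2, gyf1 gyf2-1, gyf2, gyf1 and WT; bars are the mean ± SD (n = 3). CYCD3;2 lies at 21.7 to 22.9 FPKM in the double mutants and at 26.1 to 26.3 FPKM in WT, while CDKE;1 is the one gene of the 5 that is higher in the double mutants.

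None of the 9 B-type cyclins was called against WT in any mutant, and the 4 CDKB kinases were not called in any comparison. Over all 13 genes the estimates ran from −1.15 to 0.10 in gyf1 gyf2-2, and without CYCB1;5 the lowest was −0.33, that of CDKB1;2. CYCB1;4, the B-type cyclin with the highest level, had 6.93, 8.36 and 7.16 FPKM in gyf1 gyf2-2 and 6.95, 6.59 and 6.68 FPKM in gyf1 gyf2-1. It had 7.34, 8.23 and 7.12 FPKM in gyf2, 7.74, 7.39 and 7.24 FPKM in gyf1, and 8.31, 7.96 and 6.60 FPKM in WT. These ranges overlapped, and the log2 fold changes were −0.03 in gyf1 gyf2-2, −0.18 in gyf1 gyf2-1, −0.02 in gyf2 and −0.04 in gyf1.

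CYCB1;1, whose sequence is given above, was named after its values were seen. It had 5.51, 6.90 and 4.98 FPKM in gyf1 gyf2-2 and 5.87, 4.92 and 6.07 FPKM in gyf1 gyf2-1. It had 7.13, 5.56 and 5.92 FPKM in gyf2, 4.91, 6.60 and 4.62 FPKM in gyf1, and 7.99, 7.02 and 6.13 FPKM in WT. WT was highest on average, and the libraries of gyf1, gyf2 and gyf1 gyf2-2 reached into its range. The log2 fold change was −0.28 in gyf1 gyf2-2 (adjusted p = 0.168), −0.33 in gyf1 gyf2-1 (adjusted p = 0.112), −0.18 in gyf2 (adjusted p = 0.625) and −0.40 in gyf1 (SE 0.15, adjusted p = 0.349).

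CYCB1;5 was called in 1 comparison, the mean of the double mutants against gyf2, at low counts. It had 11, 12 and 3 counts in gyf1 gyf2-2, 11, 19 and 11 counts in gyf1 gyf2-1, 39, 25 and 31 counts in gyf2, 21, 12 and 31 counts in gyf1, and 24, 12 and 24 counts in WT. The gyf2 libraries lay above those of both double mutants. The log2 fold change was −1.30 (SE 0.36, adjusted p = 0.00972), and limma on FPKM did not call it (−0.93, adjusted p = 0.0506). Against WT it had −1.15 in gyf1 gyf2-2 (SE 0.47, adjusted p = 0.0703) and −0.34 in gyf1 gyf2-1 (adjusted p = 0.611).

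CDKB2;1, the CDKB gene with the highest level, had 17.2, 19.4 and 19.0 FPKM in gyf1 gyf2-2 and 18.5, 16.5 and 16.6 FPKM in gyf1 gyf2-1. It had 18.2, 21.8 and 18.3 FPKM in gyf2, 14.5, 16.8 and 16.1 FPKM in gyf1, and 17.7, 18.8 and 16.9 FPKM in WT. The double mutants overlapped WT, and gyf1 was lowest (log2 fold change −0.18, adjusted p = 0.523). Summed over the B-type cyclins, the level was 40.2 ± 4.96 FPKM in gyf1 gyf2-2, 37.4 ± 0.646 in gyf1 gyf2-1, 43.0 ± 1.91 in gyf2, 40.8 ± 2.40 in gyf1 and 42.3 ± 3.85 in WT. The gyf1 gyf2-1 libraries (36.7 to 37.9 FPKM) lay below all those of gyf2, gyf1 and WT, by a narrow margin to gyf1 (lowest 38.0 FPKM). Those of gyf1 gyf2-2 overlapped them. Summed over the CDKB genes, it was 41.8 ± 2.59 FPKM in gyf1 gyf2-2, 38.4 ± 2.27 in gyf1 gyf2-1, 41.6 ± 2.19 in gyf2, 37.6 ± 1.67 in gyf1 and 41.4 ± 2.04 in WT (SD, n = 3 each).

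**Figure D3:**
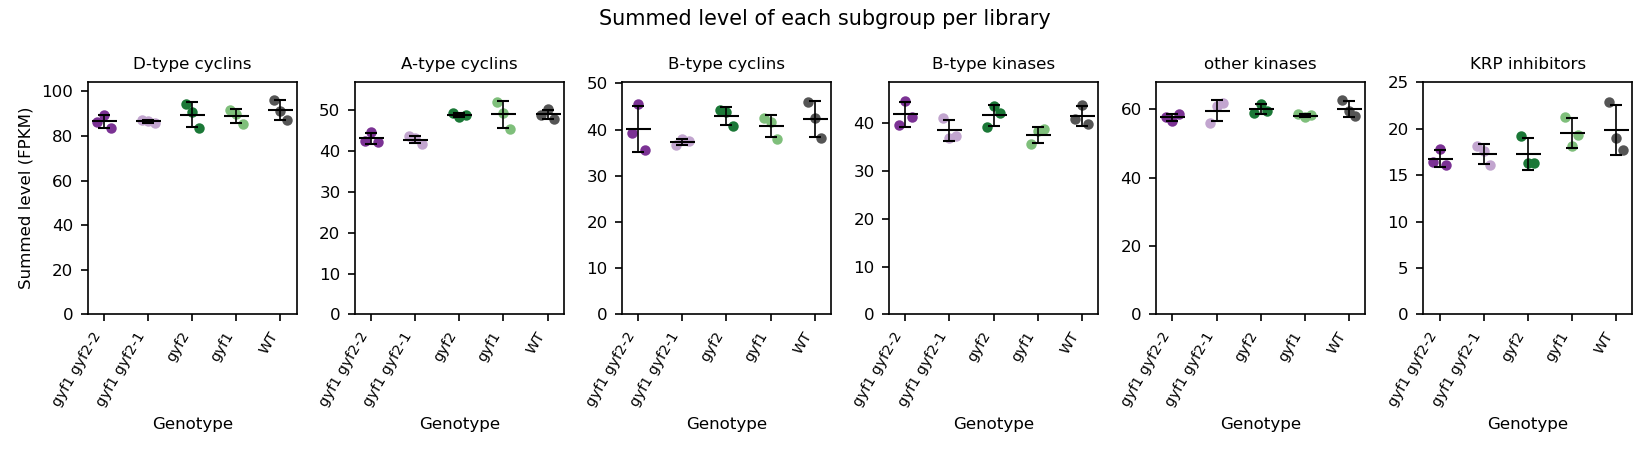
Summed level in FPKM (vertical axis) of each subgroup in each library of gyf1 gyf2-2, gyf1 gyf2-1, gyf2, gyf1 and WT; bars are the mean ± SD (n = 3). The A-type cyclins lie at 41.6 to 44.5 FPKM in the double mutants and at 45.4 FPKM or more in the other 9 libraries. In each of the other 5 subgroups at least 1 double mutant line overlaps the other genotypes. For the B-type cyclins only gyf1 gyf2-2 overlaps them, and gyf1 gyf2-1 lies at 36.7 to 37.9 FPKM, just below them.

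CDKE;1 was the one gene of the 39 called higher against WT. It encodes the kinase of the Mediator complex, a bridge between transcription factors and RNA polymerase II, and lies at chromosome 5, 25463362 to 25465922, on the minus strand. CDKE;1 had 11.7, 12.7 and 12.5 FPKM in gyf1 gyf2-2 and 11.1, 12.1 and 14.6 FPKM in gyf1 gyf2-1. It had 11.8, 11.0 and 10.6 FPKM in gyf2, 12.0, 10.1 and 10.8 FPKM in gyf1, and 9.75, 10.8 and 10.1 FPKM in WT. The double mutant libraries lay above those of WT and overlapped both single mutants. Log2 fold changes were 0.26 in gyf1 gyf2-2 (SE 0.10, adjusted p = 0.0428), with 0.30 in gyf1 gyf2-1 (SE 0.10, adjusted p = 0.0254). In gyf1 gyf2-2 the call was lost without WT replicates 1 (0.23, adjusted p = 0.13) or 3 (0.25, adjusted p = 0.0954), without that line's replicate 2 (0.24, adjusted p = 0.105) or its replicate 3 (0.25, adjusted p = 0.113), by DESeq2 (0.27, adjusted p = 0.0538) and by limma (0.26, adjusted p = 0.0543). It was lost as well without the 4 libraries that stood apart (0.21, adjusted p = 0.174). In gyf1 gyf2-1 it was lost without WT replicates 1 (0.26, adjusted p = 0.0908) or 3 (0.29, adjusted p = 0.0594) without that line's replicate 3 (0.18, adjusted p = 0.229), and with only the genotypes compared in the fit (0.30, adjusted p = 0.0503).

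CDKC2, a kinase of the elongation step of transcription and the most abundant of the 39 genes, had 28.9, 26.3 and 28.8 FPKM in gyf1 gyf2-2 and 27.9, 30.1 and 28.5 FPKM in gyf1 gyf2-1. It had 29.1, 31.3 and 29.5 FPKM in gyf2, 29.0, 29.2 and 29.6 FPKM in gyf1, and 33.3, 29.0 and 29.2 FPKM in WT. The gyf1 gyf2-2 libraries lay just below WT, and the log2 fold change was −0.13 there (adjusted p = 0.178). CDKD1;3, a kinase that activates other cyclin-dependent kinases, had 4.96, 5.02 and 4.95 FPKM in gyf1 gyf2-2 and 5.23, 4.79 and 6.33 FPKM in gyf1 gyf2-1. It had 6.39, 6.70 and 7.32 FPKM in gyf2, 5.43, 5.58 and 6.13 FPKM in gyf1, and 6.65, 6.82 and 5.24 FPKM in WT. The double mutant libraries lay below those of gyf2 and overlapped WT. The mean of the double mutants was lower than gyf2 (−0.38, SE 0.11, adjusted p = 0.0125), and without gyf2 replicate 3 this was not called (−0.33, adjusted p = 0.0738), nor without the 4 libraries that stood apart (−0.32, adjusted p = 0.0832). Against WT it had −0.33 in gyf1 gyf2-2 (adjusted p = 0.0582) and −0.20 in gyf1 gyf2-1 (adjusted p = 0.273).

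KRP2, a kinase inhibitor known for slowing entry into the cycle, fell in gyf1 gyf2-2. It lies at chromosome 3, 18800306 to 18801595, on the plus strand. KRP2 had 10.8, 11.4 and 10.1 FPKM in gyf1 gyf2-2 and 11.8, 11.4 and 11.4 FPKM in gyf1 gyf2-1. It had 14.0, 10.7 and 11.5 FPKM in gyf2, 14.6, 13.2 and 13.6 FPKM in gyf1, and 15.0, 13.5 and 12.3 FPKM in WT. The double mutant libraries lay below those of gyf1 and WT and overlapped gyf2. This gave a log2 fold change of −0.34 in gyf1 gyf2-2 (SE 0.11, adjusted p = 0.0255) and −0.24 in gyf1 gyf2-1 (adjusted p = 0.12). The call was lost without WT replicates 1 (−0.26, adjusted p = 0.138) or 2 (−0.34, adjusted p = 0.0511) and without that line's replicate 1 (−0.33, adjusted p = 0.065) or its replicate 3 (−0.30, adjusted p = 0.097), and without the 4 libraries that stood apart (−0.30, adjusted p = 0.0993). The mean of the double mutants was lower than gyf1 (−0.31, SE 0.10, adjusted p = 0.0185), and this was lost without gyf1 replicate 1 (−0.26, adjusted p = 0.11). KRP6 was not called, with −0.07 in gyf1 gyf2-2, −0.13 in gyf1 gyf2-1, −0.26 in gyf2 and −0.13 in gyf1.

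Against the single mutants, the mean of both double mutant lines gave 4 of 37 genes called lower than gyf2 and 0 higher, where 21% of all tested genes were called (12.2% higher and 8.86% lower). These were CYCA2;3, CYCD1;1, CDKD1;3 and CYCB1;5, and 2 were called without gyf2 replicate 2. Against gyf1 the numbers were 3 lower and 0 higher, where 25.5% of all tested genes were called (14.3% higher and 11.2% lower). These were KRP2, CYCA1;1 and CYCD1;1. The number called lower was 1 without gyf1 gyf2-1 replicate 3 or gyf1 gyf2-2 replicate 3, and 5 without gyf1 replicate 3 or gyf1 gyf2-2 replicate 2. Without gyf1 replicate 1 it was 0, and 1 gene was called higher. The comparisons with WT share the double mutant libraries with these.

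Between the double mutant lines, gyf1 gyf2-2 against gyf1 gyf2-1, 0 of 37 genes were called (2 at unadjusted p below 0.05, 0 by DESeq2 and limma), and 0.232% of all tested genes were (0.159% higher and 0.0724% lower). Of the 37 intervals 35 lay within a factor of 2 and 30 within a factor of 1.5. Whether the changes of the single mutants add up was tested by taking the summed changes of gyf2 and gyf1 from the change averaged over both double mutants. By this test 0 of 37 genes were called (4 at unadjusted p below 0.05, 0 by DESeq2 and limma), and 7.2% of all tested genes were (4.85% higher and 2.35% lower). The intervals are wider for this sum, with 34 of 37 within a factor of 2 and 19 within a factor of 1.5.

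The 13 genes of the same families under other names include the central kinase CDKA;1 (listed as CDC2), CYCA2;2, CYCB1;2, CDKD;2, CDKF;1, KRP1, KRP3, KRP5, KRP7, SMR1, SMR4, SMR5 and SMR7. They were found through synonyms in the RefSeq annotation after the files were seen, and 12 were tested. A member of these families without such a synonym there would be missed. SMR5 was listed at 0 FPKM in every library. In gyf1 gyf2-2, 1 of the 12 was lower (8.33%, against 12.6% of all tested genes), and in gyf1 gyf2-1, 2 were (16.7%, against 11.7%). KRP3 had 3.11, 2.26 and 2.41 FPKM in gyf1 gyf2-2 and 2.93, 2.44 and 2.71 FPKM in gyf1 gyf2-1. It had 3.05, 3.34 and 4.70 FPKM in gyf2, 4.05, 3.23 and 4.93 FPKM in gyf1, and 4.26, 3.54 and 4.11 FPKM in WT. The double mutant libraries lay below those of gyf1 and WT. KRP3 fell in gyf1 gyf2-2 (log2 fold change −0.62, SE 0.20, adjusted p = 0.0225), a call kept by 8 of 13 alternatives. It also fell in gyf1 gyf2-1 (−0.56, SE 0.20, adjusted p = 0.0425), a call kept by 6 of 13. The call in gyf1 gyf2-2 was lost without WT replicate 1 (−0.56, adjusted p = 0.0743) or WT replicate 3 (−0.60, adjusted p = 0.0559). It was lost as well without gyf1 gyf2-2 replicate 2 (−0.52, adjusted p = 0.0892) or gyf1 gyf2-2 replicate 3 (−0.57, adjusted p = 0.0803). The call in gyf1 gyf2-1 was lost without WT replicate 1 (−0.51, adjusted p = 0.126) or WT replicate 3 (−0.54, adjusted p = 0.0919), and without any 1 of the line's own 3 libraries (−0.63 to −0.49, adjusted p = 0.0524 to 0.15) and by DESeq2 (−0.56, adjusted p = 0.0577). Both calls were lost without the 4 libraries that stood apart (−0.47, adjusted p = 0.152, in gyf1 gyf2-2 and −0.57, adjusted p = 0.0899, in gyf1 gyf2-1). For KRP3 the mean of the double mutants was also lower than gyf1 (−0.62, SE 0.17, adjusted p = 0.00793). It was lower than gyf2 as well (−0.48, SE 0.17, adjusted p = 0.0496), where the libraries overlapped and DESeq2 called 0 of these genes.

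KRP7 fell in gyf1 gyf2-1 (−0.68, SE 0.23, adjusted p = 0.0284) and had −0.58 in gyf1 gyf2-2 (adjusted p = 0.0537). Its call was lost without WT replicates 1 (−0.65, adjusted p = 0.0781) or 2 (−0.68, adjusted p = 0.0627) and gyf1 gyf2-1 replicates 1 (−0.62, adjusted p = 0.0836) or 2 (−0.57, adjusted p = 0.13), and without the 4 libraries that stood apart (−0.58, adjusted p = 0.146). KRP1 and KRP5 were not called. CDKA;1 had 35.0, 34.9 and 37.2 FPKM in gyf1 gyf2-2, 35.6, 36.1 and 37.4 FPKM in gyf1 gyf2-1, and 32.1, 33.5 and 32.1 FPKM in WT. Its log2 fold change was 0.13 in gyf1 gyf2-2 (adjusted p = 0.147) and 0.16 in gyf1 gyf2-1 (adjusted p = 0.0861). SMR1, an inhibitor that drives giant cell formation in sepals and is listed as LGO, had −0.12 in gyf1 gyf2-2 and −0.03 in gyf1 gyf2-1, and CYCB1;2 had 0.03 and −0.11.

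The other genes of the division cycle were followed in 7 lists with 63 genes, all of which were tested. Of these, 13 were lower in gyf1 gyf2-2 and 10 in gyf1 gyf2-1, and 0 were higher in either line. Of all tested genes 12.6% were lower and 15.1% higher in gyf1 gyf2-2, and 11.7% were lower and 14.2% higher in gyf1 gyf2-1. List counts such as 1 of 9 (11.1%) and 2 of 13 (15.4%) lie near the lower shares, while some others lie above them. The lists of MYB3R factors (0 of 5) and of DNA damage genes (0 of 6) lie below them in both lines. In gyf2 and in gyf1 0 were called (5 at unadjusted p below 0.05 and 0 by DESeq2 and limma in each). In the replication list 7 of 17 were lower in gyf1 gyf2-2 (41.2%) and 3 in gyf1 gyf2-1 (17.6%), and its median log2 fold change was −0.27 and −0.18. DESeq2 and limma each called 6 in gyf1 gyf2-2 and 3 in gyf1 gyf2-1. The least stable of the 7 calls was kept by 5 of 13 alternatives. TSO2, a subunit of the enzyme that makes deoxynucleotides, fell by 0.33 on the log2 scale in gyf1 gyf2-2 (SE 0.07, adjusted p = 0.000398). In gyf1 gyf2-1 it fell by 0.30 (SE 0.07, adjusted p = 0.00124), and both calls were kept under all 13 alternatives. PCNA1, the sliding clamp, fell in gyf1 gyf2-2 (−0.44, SE 0.09, adjusted p = 0.000538) under all 13 and in gyf1 gyf2-1 (−0.29, adjusted p = 0.0183) under 10 of 13, where it was lost without WT replicate 2 (−0.20, adjusted p = 0.142) or gyf1 gyf2-1 replicate 2 (−0.22, adjusted p = 0.136). CDT1A, which licenses replication origins, fell in gyf1 gyf2-2 (−0.50, SE 0.12, adjusted p = 0.00198) under all 13 and in gyf1 gyf2-1 (−0.39, adjusted p = 0.0155) under 10 of 13. That call was lost without WT replicate 3 (−0.30, adjusted p = 0.09), gyf1 gyf2-1 replicate 1 (−0.35, adjusted p = 0.0561) or gyf1 gyf2-1 replicate 2 (−0.32, adjusted p = 0.0987).

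The next list held 7 regulators of the anaphase-promoting complex, which destroys mitotic cyclins. Of these, 3 were lower in gyf1 gyf2-2 (42.9%, against 12.6% of all tested genes) and 2 in gyf1 gyf2-1 (28.6%, against 11.7%). UVI4, an inhibitor of this complex, fell to 1.36, 1.49 and 1.56 FPKM in gyf1 gyf2-2 and 2.23, 1.32 and 2.24 FPKM in gyf1 gyf2-1, against 3.78, 2.88 and 3.13 FPKM in WT. The log2 fold change was −1.15 in gyf1 gyf2-2 (SE 0.22, adjusted p = 0.000154), with −0.75 in gyf1 gyf2-1 (SE 0.21, adjusted p = 0.00879). The second was lost without WT replicate 1 (−0.63, adjusted p = 0.0556) or gyf1 gyf2-1 replicate 2 (−0.54, adjusted p = 0.0856). CCS52A1, an activator of the same complex that is known for starting replication without mitosis, fell by 0.38 (gyf1 gyf2-2, SE 0.11, adjusted p = 0.0109) and 0.47 (gyf1 gyf2-1, SE 0.11, adjusted p = 0.00245) on the log2 scale, under all 13 alternatives in each. SAMBA, a further regulator of it, had −0.46 in gyf1 gyf2-2 (adjusted p = 0.0153), a call lost without WT replicate 1 (−0.37, adjusted p = 0.0919), gyf1 gyf2-2 replicate 1 (−0.43, adjusted p = 0.0602) or gyf1 gyf2-2 replicate 3 (−0.44, adjusted p = 0.0535). It had −0.37 in gyf1 gyf2-1 (adjusted p = 0.0598). In the mitosis and cytokinesis list 2 of 13 were lower in gyf1 gyf2-2 (15.4%) and 3 in gyf1 gyf2-1 (23.1%). The call of CDC20.1, made in both, was kept by 10 of 13 alternatives in gyf1 gyf2-2 and 11 of 13 in gyf1 gyf2-1. Without WT replicate 1 it was lost in gyf1 gyf2-2 (−0.20, adjusted p = 0.0794) and in gyf1 gyf2-1 (−0.23, adjusted p = 0.0559). The E2F list had 1 of 9 lower in each line, DPA, kept by 9 of 13 alternatives in gyf1 gyf2-2 and 12 of 13 in gyf1 gyf2-1, where it was lost without that line's replicate 2 (−0.32, adjusted p = 0.131). The list of other kinase partners had 0 of 6 called in gyf1 gyf2-2 (1 at unadjusted p below 0.05, 0 by DESeq2 and limma). In gyf1 gyf2-1 it had 1 (16.7%), MAT1 (−0.37, adjusted p = 0.0467), which was kept by 3 of 13 alternatives. MAT1 was not called by DESeq2 (−0.36, adjusted p = 0.0631), by limma (−0.34, adjusted p = 0.0597), without the filter on low counts (−0.37, adjusted p = 0.0545), or without WT replicate 1 (−0.24, adjusted p = 0.271), WT replicate 3 (−0.35, adjusted p = 0.095) or any 1 library of its line (−0.41 to −0.30). The MYB3R list had 0 of 5 called and the DNA damage list 0 of 6 in each line (1 and 0 at unadjusted p below 0.05 in gyf1 gyf2-2, 0 and 0 in gyf1 gyf2-1, 0 by DESeq2 and limma). Without gyf1 gyf2-2 replicate 3 the 13 calls in that line became 7, and the 10 in gyf1 gyf2-1 became 6 without WT replicate 1 and 2 without that line's replicate 2.

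**Figure D4:**
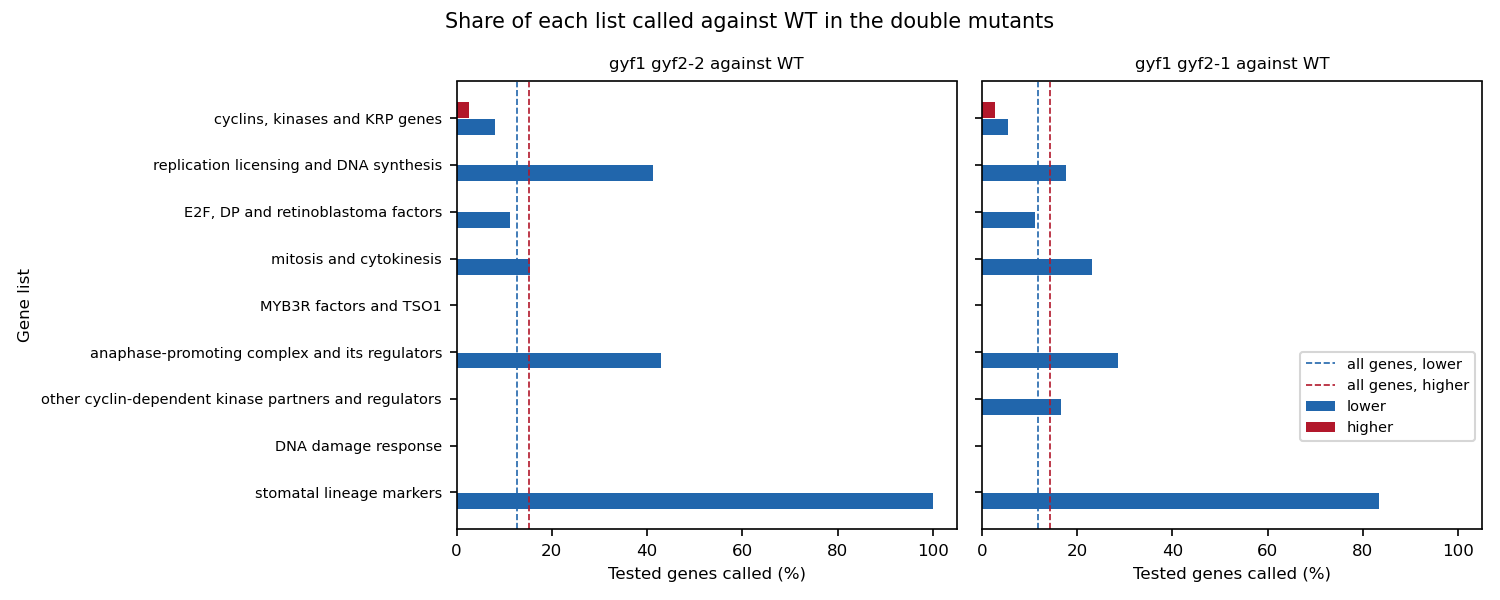
Share of tested genes called lower and higher against WT (horizontal axis, percent) in gyf1 gyf2-2 (left) and gyf1 gyf2-1 (right) for the cyclins, kinases and KRP genes, the 7 lists of other division genes and the stomatal lineage markers (rows). Dashed lines give the shares over all 20721 tested genes, which in gyf1 gyf2-2 are 12.6% lower and 15.1% higher. The corresponding lines for gyf1 gyf2-1 stand at 11.7% and 14.2%.

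Marker genes of several tissues and cell types were also followed, not all of which hold dividing cells. The tests are those of edgeR with Benjamini-Hochberg adjustment. The summed level of 6 stomatal lineage markers (SPCH, MUTE, FAMA, TMM, BASL and EPF2) was 25.0 to 27.2 FPKM in gyf1 gyf2-2, 25.9 to 29.4 in gyf1 gyf2-1, 32.2 to 35.5 in gyf2, 34.6 to 37.5 in gyf1 and 39.9 to 42.9 in WT. All 6 were called lower in gyf1 gyf2-2, 5 of them also by DESeq2, and 5 of 6 in gyf1 gyf2-1. In gyf2, 1 of the 6 was called lower, EPF2, a call kept by 7 of 13 alternatives (−0.85 to −0.63), and in gyf1 0 were called. In gyf1 gyf2-2 MUTE (−0.66, adjusted p = 0.0413) was kept by 5 of 13 alternatives, and was lost by DESeq2 (−0.66, adjusted p = 0.0531) and without any of 5 single libraries (−0.67 to −0.58). FAMA (−0.32, adjusted p = 0.0275) was kept there by 9 of 13 and lost without any of 4 single libraries (−0.32 to −0.28). BASL was lost in both lines without WT replicate 1 (−0.56, adjusted p = 0.064, in gyf1 gyf2-2 and −0.51, adjusted p = 0.111, in gyf1 gyf2-1). EPF2 had log2 fold changes of −1.28 (adjusted p = 2.13e-05) and −1.11 (adjusted p = 0.000174), and SPCH, which starts the lineage, had −0.65 (adjusted p = 6.86e-05) and −0.52 (adjusted p = 0.0011). The 5 root meristem markers summed to 22.1 to 23.4 FPKM in gyf1 gyf2-2, 21.5 to 23.1 in gyf1 gyf2-1, 21.5 to 24.7 in gyf2, 22.0 to 23.5 in gyf1 and 20.8 to 23.5 in WT, and 0 of 5 were called in either double mutant (1 and 0 at unadjusted p below 0.05, 0 by DESeq2 and limma). The 5 shoot meristem markers summed to 20.7 to 21.3 FPKM in gyf1 gyf2-2 and 20.6 to 23.3 in gyf1 gyf2-1. Their sum was 21.6 to 22.7 FPKM in gyf2, 20.6 to 21.1 in gyf1 and 20.9 to 21.6 in WT. WUS had 0 or 1 count in every library, and only 3 of the 5 passed the filter and were tested. Among them STM was higher in gyf1 gyf2-1 (0.57, adjusted p = 0.0261), a call lost without WT replicate 3 (0.37, adjusted p = 0.163), gyf1 gyf2-1 replicate 2 (0.51, adjusted p = 0.102) or gyf1 gyf2-1 replicate 3 (0.51, adjusted p = 0.0956). The 4 trichome markers summed to 4.76 to 5.88 FPKM in gyf1 gyf2-2, 4.00 to 5.55 in gyf1 gyf2-1, 5.70 to 7.22 in gyf2, 5.95 to 6.23 in gyf1 and 6.36 to 7.24 in WT. Of these GL1 was lower in gyf1 gyf2-1 (−1.38, adjusted p = 0.0144), a call lost without WT replicate 1 (−1.13, adjusted p = 0.0944), gyf1 gyf2-1 replicate 2 (−1.21, adjusted p = 0.0745) or gyf1 gyf2-1 replicate 3 (−1.16, adjusted p = 0.0831). The 3 root markers summed to 1940 to 2065 FPKM in gyf1 gyf2-2, 1943 to 2006 in gyf1 gyf2-1, 1465 to 1661 in gyf2, 1606 to 2076 in gyf1 and 1268 to 1505 in WT. PYK10 was higher in gyf1 gyf2-2 (0.52) and gyf1 gyf2-1 (0.49) under all 13 alternatives. In gyf1 it was higher (0.35, adjusted p = 0.0283) under 7 of 13, and the call was lost by limma (0.35, adjusted p = 0.112), with only the genotypes compared (0.35, adjusted p = 0.115), and without gyf1 replicate 3 (0.23, adjusted p = 0.315), WT replicate 1 (0.28, adjusted p = 0.192) or WT replicate 2 (0.37, adjusted p = 0.0694). The other 2 root markers were not called, EXPA7 with −0.57 in gyf1 gyf2-2 (adjusted p = 0.0526) and −0.09 in gyf1 gyf2-1, and COBL9 with −0.19 and 0.14. The median of the 3 in gyf1 gyf2-2 was −0.19, and DESeq2 called 2 of them there. Of the 3 green tissue markers RBCS1A was higher in gyf1 gyf2-2 (0.22) and gyf1 gyf2-1 (0.24), the first without a call when gyf1 gyf2-2 replicate 3 was left out (0.17, adjusted p = 0.0621), and RBCS3B was lower in gyf1 gyf2-1 (−0.23, adjusted p = 0.00517). The part of these tissues in the results above was not tested.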

How the data were processed

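Gene expression was measured in whole seedlings, with 3 libraries for each of 5 genotypes. The deposited tables hold, for each gene, raw counts and the authors' FPKM. HISAT2 2.0.4 and HTSeq 0.6.1p1 are the tools, and TAIR10 the build, listed in the submitters' processing notes. The sources used here do not state how the FPKM were scaled. FPKM were used to describe levels and in limma as an alternative, on log2(FPKM + 0.1). From the counts, edgeR 4.0.16 in R 4.3.3 kept 20721 genes by filterByExpr (12112 were removed), scaled libraries by TMM and fitted 1 mean per genotype over all 15 libraries with robust quasi-likelihood dispersions (the common coefficient of biological variation was 7.94%). P-values were adjusted by Benjamini-Hochberg within each of 8 comparisons, and the standard error was the log2 fold change divided by the square root of F. Alternatives were DESeq2 1.42.0, limma 3.58.1, RLE scaling, no filter, only the genotypes compared, a replicate block, leaving out each library, and leaving out together the 4 libraries that stood apart, which was chosen after seeing the data. The edgeR step was tested on simulated data. The genes, the 13 lists of other genes and the comparisons were chosen with earlier results of these data known. Values per library are given for members called in any comparison and for the highest of each subgroup, and for other lists the 4 genes with the lowest adjusted p were eligible to be named. Promoter windows were read from the RefSeq genome TAIR10.1. Starts and ends were the same there for all 39 genes, whose coding sequences begin with ATG.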

Additional observations from a re-analysis of the deposited data

Results flagged for a closer look

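Of the results reported, 2 differed between genotypes by the test of non-additivity itself (edgeR quasi-likelihood, Benjamini-Hochberg adjusted), and both belong to genes outside the cyclin, kinase and KRP families. By limma on log2 FPKM neither was called. RNR1, the large subunit of the enzyme that makes deoxynucleotides, had a non-additivity of −0.33 on the log2 scale (SE 0.10, adjusted p = 0.0435). Its log2 fold change was −0.28 in gyf1 gyf2-2 and −0.11 in gyf1 gyf2-1, against 0.07 in gyf2 and 0.06 in gyf1. RBCS1A, a gene of the carbon-fixing enzyme Rubisco, had a non-additivity of 0.29 (SE 0.08, adjusted p = 0.0265). Its log2 fold change was 0.22 in gyf1 gyf2-2 and 0.24 in gyf1 gyf2-1, against −0.07 in gyf2 and 0.01 in gyf1.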

How the results depend on the processing

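Of the 14 calls of cyclin, kinase and KRP genes, 0 reversed direction under any alternative and 1 kept its call under all. With single libraries left out, the number of these genes called was 0 in gyf2 and 0 in gyf1, 1 to 4 in gyf1 gyf2-2, 1 to 4 in gyf1 gyf2-1, 2 to 5 against gyf2, 1 to 5 against gyf1, 0 between the lines and 0 for non-additivity. Over all genes it was 4352 to 5501, 3769 to 5308, 391 to 447 and 80 to 97 in gyf1 gyf2-2, gyf1 gyf2-1, gyf2 and gyf1, 2823 to 4519 against gyf2, 3935 to 5410 against gyf1, 21 to 58 between the lines and 994 to 1508 for non-additivity. Lower genes of the other division lists numbered 7 to 14 in gyf1 gyf2-2 and 2 to 11 in gyf1 gyf2-1. Without the 4 libraries that stood apart, 2 members were called in gyf1 gyf2-2, 6 against gyf1 and 1 for non-additivity, and 118 genes between the lines. By limma 2 members were called in gyf1 gyf2-2 and 30 genes between the lines, and DESeq2 called 168 genes in gyf1. The cause was not tested. Replicate numbers are not said to pair the libraries, and the correlations left this unsettled. Of 30 same-numbered pairs, 5 correlated above 0.1 (range −0.07 to 0.19, against −0.19 to 0.11 for other numbers). A replicate block gave 192 genes in gyf1, where 108 were called without it, and 714 in gyf2, against 519. It gave 5 members against gyf1 and kept all 14 calls. Summed CPM in place of FPKM moved no subgroup total by more than the spread between replicates. Genes below 1 FPKM have wide intervals.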
